A study of Homo sapiens with 4 samples.

Results

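The zinc finger cluster around ZNF350 was taken as 36 zinc finger genes of chromosome band 19q13.4, from ZNF577 to ZNF331, among 40913 genes and unnamed transcripts on the array. The genes were listed by name for where they lie, not for their values. Expression had been measured in HCT116 cells, a human colorectal carcinoma line, on one-colour Agilent arrays. MG cells are the subpopulation that had migrated through a transwell membrane over repeated selection, and non-MG cells are the one that had stayed on the upper side. Each was treated with 5 µM 5-azacytidine, which traps DNA methyltransferases and so lowers DNA methylation, or left as control (called vehicle here) for 48 h. The conditions therefore were non-MG vehicle, non-MG 5-azacytidine, MG vehicle and MG 5-azacytidine, all in the same cell line and with no other alteration. Both subpopulations are selected pools of 1 line, the labels and the methods name different RNA extraction reagents, and each condition has 1 array. With these arrays no difference between conditions could be tested, and none has a replicate array. The study chose ZNF350 with these arrays, a methylation array and correlations in public colon tumour data. Its own pattern here is therefore not independent of that choice.

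Zinc finger genes of this kind encode proteins that bind DNA through arrays of zinc fingers, and most carry a KRAB domain. The KRAB domain recruits TRIM28, which brings the histone methyltransferase SETDB1 and HP1 proteins to the bound site and represses it, often at transposable elements. The genes arose by tandem duplication and lie in clusters on chromosome 19. ZNF350, also known as ZBRK1, is a KRAB zinc finger repressor that binds BRCA1. The question was whether its low signal in MG cells and its higher signal with 5-azacytidine were shared by its neighbours.

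The upstream sequences of 5 genes are shown because CG dinucleotides, the sites that DNA methyltransferases modify and that 5-azacytidine affects, are counted in them. They hold the 250 bases before the most upstream RefSeq start (GRCh38.p14), written 5′ to 3′ on the strand of the gene with CG in capitals. ZNF350 lies at chr19:51986841-51987090 on the minus strand. ZNF613 (chr19:51927222-51927471, plus strand) and ZNF615 (chr19:52008212-52008461, minus strand) are its next zinc finger genes in chromosome order. ZNF577 (chr19:51887952-51888201, minus strand) is the first gene of the cluster and was well above background on the MG vehicle array alone, and ZNF761 (chr19:53431734-53431983, plus strand) was the gene past 1.5-fold with 5-azacytidine in MG cells.
ZNF350: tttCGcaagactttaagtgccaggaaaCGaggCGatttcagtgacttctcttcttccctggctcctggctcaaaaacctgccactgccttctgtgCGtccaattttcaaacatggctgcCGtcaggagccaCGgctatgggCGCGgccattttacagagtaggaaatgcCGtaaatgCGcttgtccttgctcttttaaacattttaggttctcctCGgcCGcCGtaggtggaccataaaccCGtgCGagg
ZNF613: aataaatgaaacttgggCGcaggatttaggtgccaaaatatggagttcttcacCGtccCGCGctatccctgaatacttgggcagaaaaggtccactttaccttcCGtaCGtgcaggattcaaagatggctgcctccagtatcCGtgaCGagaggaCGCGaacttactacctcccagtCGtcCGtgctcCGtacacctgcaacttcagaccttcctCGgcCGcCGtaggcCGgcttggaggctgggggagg
ZNF615: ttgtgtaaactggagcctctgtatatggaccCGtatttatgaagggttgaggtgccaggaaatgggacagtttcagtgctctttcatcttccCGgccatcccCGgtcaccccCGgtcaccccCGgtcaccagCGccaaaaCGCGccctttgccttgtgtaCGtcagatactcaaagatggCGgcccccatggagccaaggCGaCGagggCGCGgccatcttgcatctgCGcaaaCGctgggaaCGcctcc
ZNF577: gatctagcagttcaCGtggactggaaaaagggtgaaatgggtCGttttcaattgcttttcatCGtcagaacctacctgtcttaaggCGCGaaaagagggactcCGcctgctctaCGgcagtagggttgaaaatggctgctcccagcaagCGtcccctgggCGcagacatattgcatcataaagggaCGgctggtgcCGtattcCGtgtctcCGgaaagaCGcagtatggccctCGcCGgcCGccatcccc
ZNF761: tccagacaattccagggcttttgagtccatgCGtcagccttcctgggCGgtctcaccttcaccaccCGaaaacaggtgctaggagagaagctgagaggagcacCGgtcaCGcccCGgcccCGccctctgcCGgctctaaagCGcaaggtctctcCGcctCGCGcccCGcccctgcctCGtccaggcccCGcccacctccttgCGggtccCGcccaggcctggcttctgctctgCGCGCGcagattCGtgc

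The array held 51 probes for 35 of the 36 genes, each with 1 spot, and ZNF611 was matched by no probe. Signals are Agilent processed intensities, compared between arrays after log2 and subtraction of the 75th percentile of each array, which was 87.0, 75.2, 98.7 and 96.4 for non-MG vehicle, non-MG 5-azacytidine, MG vehicle and MG 5-azacytidine. Where 4 intensities are given, they follow this order of arrays. The Agilent software flags whether a signal is well above background, and the lowest such intensity lay between 9.95 and 11.8. A signal without this flag was raised to that limit where it lay below it, so that its ratio is "at least" the value given. Where it lay above the limit it was kept as measured, as for ZNF808 in MG vehicle and ZNF841 in non-MG vehicle. A gene was called different past 1.5-fold, or 0.58 on the log2 scale. The error beside a difference is the spread between spots of replicated probes at the same intensity, and covers spotting and scanning only. The arrays lay on 1 slide, with cell type in its rows and treatment in its columns, so that position cannot be told apart from condition. Of 12 colon epithelial markers 9 were well above background on every array, while VIL1, CEACAM5 and LGALS4 were not. Of these 9, CDH1 (log2 difference of -0.66) and CLDN4 (-0.73) were lower in MG than in non-MG cells with vehicle past 1.5-fold. This is 22.2%, compared with 9.79% of all genes. With 5-azacytidine CLDN4 (-0.90) was lower past 1.5-fold, and no marker was higher with either treatment. The study reported CDH1 as unchanged in MG cells, by qPCR as well. With 1 array per condition, the lower CDH1 signal here cannot be weighed against that. Of 10 markers of other cells, 8 were well above background on no array, and CD14 and COL1A1 were on all of them. The summed intensity of the 12 epithelial markers, in units of the 75th percentile, was 1547, 1498, 1356 and 1343 on the 4 arrays. That of the 10 other markers was 1.82 in non-MG vehicle, 1.68 in non-MG 5-azacytidine, 1.05 in MG vehicle and 1.29 in MG 5-azacytidine. Both sums were lower in MG than in non-MG vehicle, as ZNF350 was, and their part in the results was not tested.

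Of the 35 genes with a probe, 14 were well above background on no array, which is 40.0%, compared with 33.1% of all named genes. They were ZNF649, ZNF615, ZNF432, ZNF836, ZNF610, ZNF880, ZNF528, ZNF534, ZNF578, ZNF415, ZNF347, ZNF665, ZNF677 and ZNF331. The share was 41.4%, 45.0% and 39.6% in the zinc finger clusters of 19p12, 19q13.31 and 19q13.43. ZNF577 was left out by a filter on dim probes (among the lowest 20th percentile of at least 2 arrays). The other 20 genes had 27 probes that were kept, and 15 genes had a kept probe well above background on all 4 arrays.

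**Figure D1:**
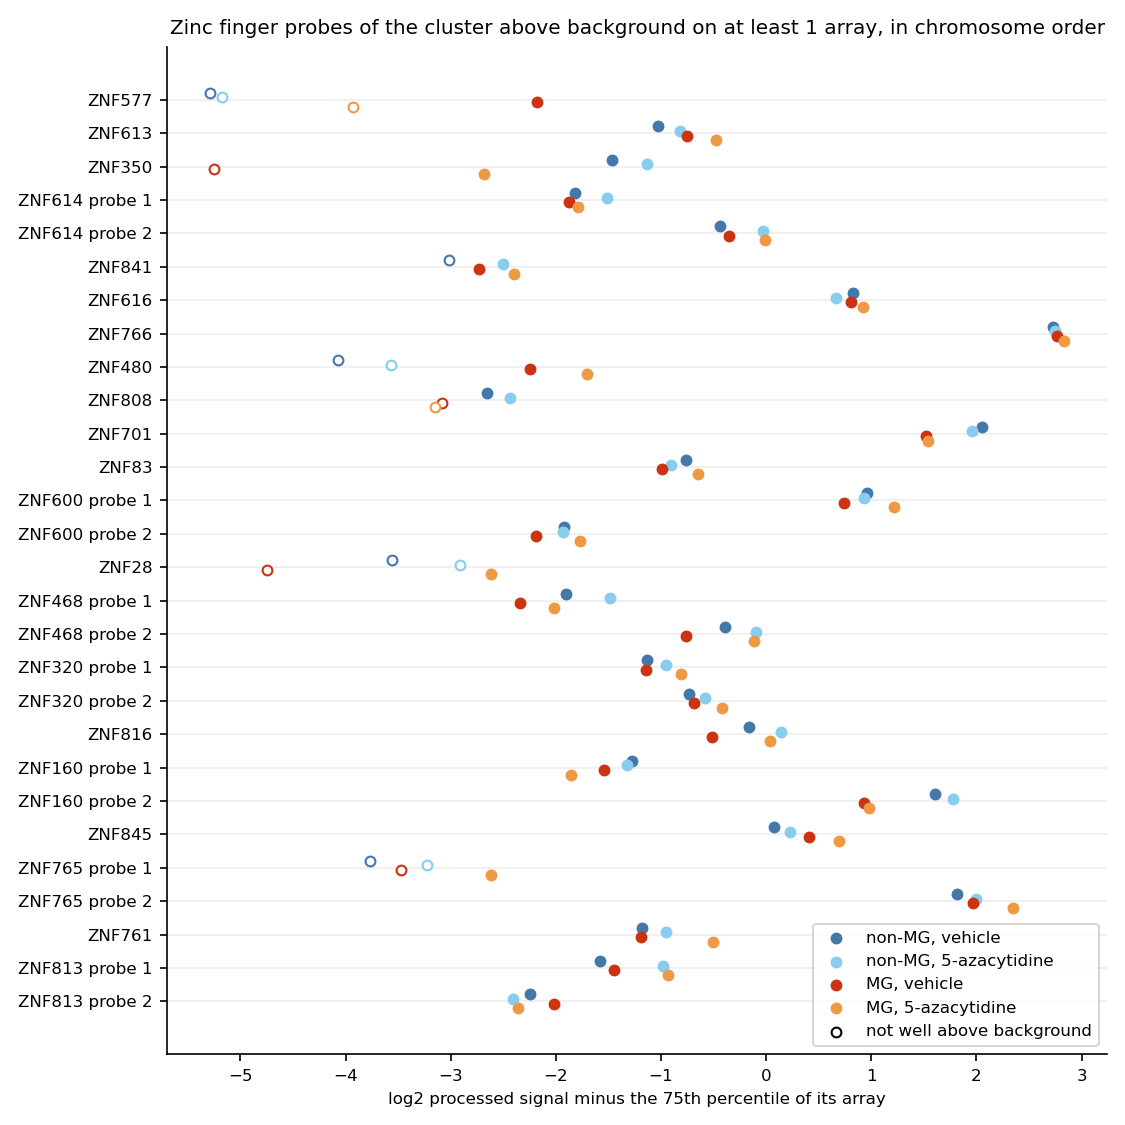
Scaled log2 signal (x axis, log2 processed signal minus the 75th percentile of its array) of each probe of the cluster that was well above background on at least 1 array, in chromosome order. Points are single arrays, open points are not well above background, and only points of the same row are to be compared. ZNF350 is the one gene with an open MG vehicle point and its other 3 points filled.

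The ZNF350 probe measured intensities of 31.5 in non-MG vehicle, 34.3 in non-MG 5-azacytidine, 2.60 in MG vehicle and 15.1 in MG 5-azacytidine. The MG vehicle signal was not well above background, and the other 3 were. With vehicle, ZNF350 was at least 3.11-fold lower in MG than in non-MG cells (log2 difference of -1.64 at the detection limit). With 5-azacytidine both arrays measured it, and it was 2.92-fold lower in MG cells (-1.55 ± 0.35). These sizes depend on the background correction: with normexp and an offset of 50, which shrinks the differences of dim probes, they were -0.60 and -0.61, both still past 1.5-fold. The level in treated MG cells was thus still below that of either non-MG array.

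The 5-azacytidine comparison within MG cells rests on the vehicle array that the MG over non-MG comparison also used. There ZNF350 went from a signal not well above background to one that was, but the bound on the rise is only at least 1.34-fold. With the dim signal taken as measured, the log2 difference was 2.57, a value that rests on the intensity of 2.60. In non-MG cells the difference was 0.34 ± 0.24. On these arrays the lower signal in MG cells is therefore past 1.5-fold at its bound, and the recovery is not. The bound on the recovery is set by the detection limit of the MG vehicle array. The study reported both changes by qPCR, which these arrays do not include.

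Among the 18 other genes with a ratio, none was lower in MG than in non-MG cells with vehicle past 1.5-fold. ZNF350 was thus the only one of 19 called lower, or 5.26%, compared with 9.79% of all genes. Of the others, 9 lay below 0 and 9 above. ZNF480 and ZNF841, above 0, were well above background in MG vehicle and not in non-MG vehicle, and ZNF808, below 0, the reverse. Their signs follow from this. Next to it, ZNF613 measured 42.5, 42.6, 58.6 and 69.2 on the 4 arrays. Both MG arrays were the higher ones, and the difference with vehicle was 0.28 ± 0.18. ZNF615, on the other side, was below background with both of its probes on every array, so that nothing can be said of a loss. The next gene, ZNF614, differed by 0.02 ± 0.15 in the mean of its probes.

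The genes with the lowest differences after ZNF350 lay farther along the cluster. ZNF701 measured 361, 293, 284 and 281, and non-MG vehicle was the highest of them. Its difference of -0.53 ± 0.09 was short of 1.5-fold. ZNF160, described as a repressor of TLR4 in intestinal epithelial cells, differed by -0.47 ± 0.10, and its probes by -0.67 and -0.27. ZNF808 measured 13.9 and 13.9 on the non-MG arrays and was not well above background on either MG array, at 11.7 and 10.9. With its dim MG vehicle signal as measured, it was 1.35-fold lower in MG cells with vehicle. This direction follows from its detection on the non-MG arrays alone. ZNF468 differed by -0.40 ± 0.16 and ZNF816 by -0.34 ± 0.11.

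One gene of the 19, ZNF480, was called higher in MG cells with vehicle, compared with 6.8% of all genes. It measured 5.16 and 6.36 on the non-MG arrays, neither well above background, and 20.9 and 29.6 on the MG arrays. It was at least 1.83-fold higher in MG cells with vehicle and at least 2.32-fold higher with 5-azacytidine, but with normexp the differences were 0.22 and 0.19. The direction of both bounds follows from its detection on the MG arrays alone, and is no separate result. ZNF577, left out by the percentile filter, measured 2.23, 2.08, 21.9 and 6.33, and its MG vehicle array alone was well above background. Without the filter it was at least 1.92-fold higher in MG cells with vehicle, and at least 1.81-fold lower with 5-azacytidine in MG cells. It was detected through that array alone, so that both directions rest on this 1 spot and could not have come out otherwise. The remaining genes with a ratio lay between -0.24 for ZNF600 and 0.33 for ZNF845. The median of the 19 was -0.01, against -0.02 over all genes.

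**Figure D2:**
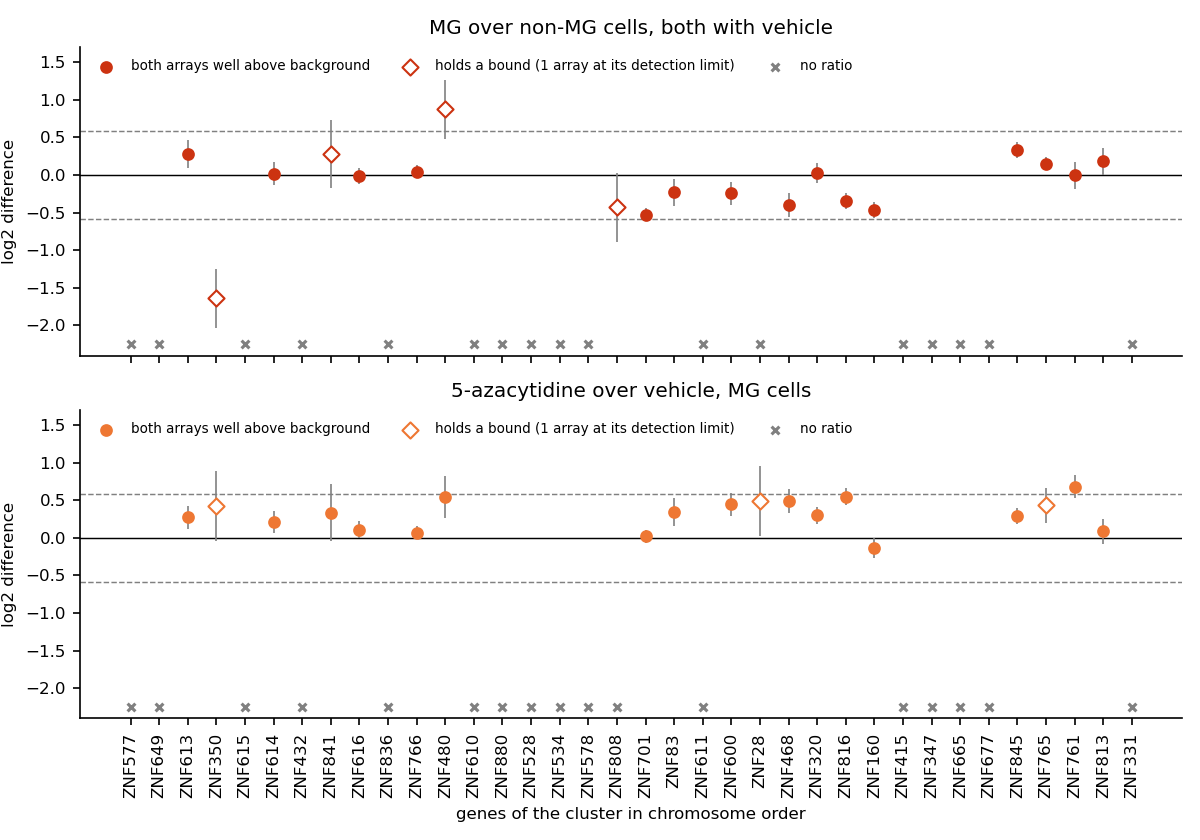
Log2 difference (y axis) of each gene in chromosome order (x axis), for MG against non-MG cells under vehicle (upper) and 5-azacytidine over vehicle in MG cells (lower). Bars are the spot error, dashed lines 1.5-fold, open diamonds genes with a bound and crosses genes with no ratio, and both panels use the MG vehicle array. ZNF350 is alone below the lower dashed line in the upper panel, while 18 of 19 genes lie above 0 in the lower panel. The sign of ZNF28 there follows from its detection in MG 5-azacytidine alone, and that of ZNF350 from its lack of detection in MG vehicle.

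In MG cells the difference of 5-azacytidine from vehicle lay above 0 in 18 of 19 genes, but 1 was called higher, compared with 5.73% of all genes. ZNF28 is among the 18 only through its detection on the MG 5-azacytidine array alone, from which its sign follows. The sign of ZNF350 follows from its detection in MG 5-azacytidine and not in MG vehicle. The called gene was ZNF761, with intensities of 38.4, 38.9, 43.4 and 67.9. Its MG 5-azacytidine array stood above the other 3, and the difference was 0.68 ± 0.15, or 1.60-fold (0.39 with normexp, which ends the call). None was called lower, compared with 3.62% of all genes. ZNF160 was the one gene below 0, at -0.13 ± 0.13.

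The differences were small and lay mostly on one side. ZNF816 measured 77.6, 83.2, 69.3 and 99.0, and its difference in MG cells was 0.55 ± 0.11. ZNF480 followed at 0.54 ± 0.28, ZNF468 at 0.49 ± 0.16 and ZNF600 at 0.45 ± 0.15. ZNF765 was at 0.43 ± 0.23, with a bound from its dimmer probe, which was well above background in MG 5-azacytidine alone. Its brighter probe measured 307, 300, 386 and 490, highest in MG 5-azacytidine, and gave 0.38. ZNF320 was at 0.30 ± 0.12. In ZNF468 the probes gave 0.65 and 0.32. In ZNF813 they disagreed in direction, at 0.52 and -0.34. ZNF766 at 0.07 ± 0.09 and ZNF701 at 0.02 ± 0.09, which had bright probes, differed by less than their spot error. The median of the 19 genes was 0.33, against -0.02 over all genes, and 94.7% of them lay above 0, against 46.2% of all genes. It was 0.29 over the 15 genes whose probes passed the background flag on all 4 arrays, and -0.02 over the 4338 genes in the middle range of the members' mean signal. Of the 19 differences, 6 were larger than 2 times their spot error. This count was not set beside all genes, and the spot error holds no difference between arrays, so that it only describes these genes.

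Genes without signal in vehicle were followed next. Of 17 genes not well above background in MG vehicle, 2 were so in MG 5-azacytidine, or 11.8%, compared with 5.95% of all such named genes. They were ZNF350 and ZNF28. ZNF28 measured 7.41, 9.98, 3.69 and 15.8, so that its MG 5-azacytidine signal was the only one well above background. It was at least 1.41-fold higher with 5-azacytidine in MG cells, a direction that follows from its detection on that array alone and rests on 1 spot. Between the cell types with vehicle ZNF28 had no ratio. In non-MG cells 1 of 18 such genes gained a signal, or 5.56%, compared with 4.99%, and it was ZNF841. ZNF841 measured 10.8 in non-MG vehicle and, with that dim signal as measured, was 1.42-fold higher with 5-azacytidine. This direction follows from its detection in non-MG 5-azacytidine and not in non-MG vehicle.

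No gene of the 18 with both ratios was called both lower in MG cells with vehicle and higher with 5-azacytidine in MG cells, compared with 1.24% of all genes. With dim signals as measured, ZNF350 and ZNF28 were, compared with 3.05%. ZNF28 was not well above background on either non-MG array, so that its lower signal in MG vehicle is a difference below background.

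In non-MG cells the difference of 5-azacytidine from vehicle lay above 0 in 14 of 18 genes, or 77.8%, compared with 43.4% of all genes. None was called higher, compared with 3.85% of all genes, and none lower, compared with 2.3%. The median was 0.20, against -0.04 over all genes. This comparison and that within MG cells have no array in common. Of 17 genes with both, 12 were above 0 in both and 13 had the larger difference in MG cells. Neither count was set beside all genes, so that they only describe these 17. ZNF841 had the largest difference in non-MG cells, at 0.51 ± 0.45. Its sign follows from its detection in non-MG 5-azacytidine and not in non-MG vehicle. ZNF468 followed at 0.36 ± 0.15 and ZNF614 at 0.36 ± 0.15. ZNF83 differed by -0.15 ± 0.18 in non-MG cells and by 0.35 ± 0.18 in MG cells. ZNF616, the lowest, was at -0.16 ± 0.11. Whether the response differed between the cell types was not tested.

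**Figure D3:**
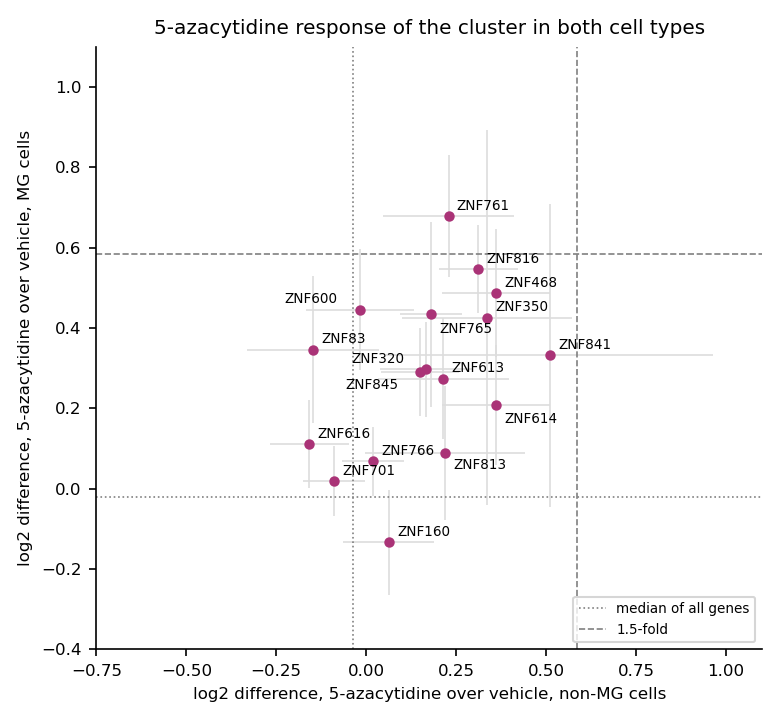
Log2 difference with 5-azacytidine in non-MG cells (x axis) and in MG cells (y axis) for the 17 genes with both ratios. Bars are the spot error, dotted lines the median of all genes and dashed lines 1.5-fold, and 12 genes lie above 0 on both axes, with ZNF761 alone above the horizontal dashed line.

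With 5-azacytidine on both sides, 3 of 20 genes were lower in MG than in non-MG cells past 1.5-fold, compared with 9.09% of all genes, and ZNF480 was the 1 called higher, compared with 7.11%. Beside ZNF350, these were ZNF160, which was 1.59-fold lower (-0.67 ± 0.15), and ZNF808, at least 1.51-fold lower. ZNF808 was well above background on the non-MG arrays alone and ZNF480 on the MG arrays alone. The directions of ZNF808 and ZNF480 here follow from where they were detected. ZNF808 lost its call with quantile normalization (-0.46), median centring (-0.33) and normexp (-0.18), and ZNF160 with median centring (-0.41) and normexp (-0.42). The brighter ZNF160 probe measured 265, 257, 188 and 190, with both MG arrays below both non-MG arrays. ZNF845 was higher in MG cells by 0.47 ± 0.11 and ZNF761 by 0.44 ± 0.15.

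The zinc finger genes of other clusters on chromosome 19 were set beside these. In MG cells with 5-azacytidine their medians were 0.16 for 28 genes of 19q13.43, 0.09 for 11 genes of 19q13.31 and -0.02 for 15 genes of 19p12. In non-MG cells they were 0.21, 0.05 and 0.01. The cluster around ZNF350 thus had the highest median of the 4 in MG cells, and lay beside 19q13.43 in non-MG cells, with no test of these differences. ZNF211 of 19q13.43 was the one gene of these 3 clusters that was called both lower in MG cells with vehicle and higher with 5-azacytidine. It measured 19.9, 22.9, 6.39 and 22.6, with MG vehicle not well above background. It was at least 1.97-fold lower in MG cells with vehicle, and at least 2.02-fold higher with 5-azacytidine.

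**Figure D4:**
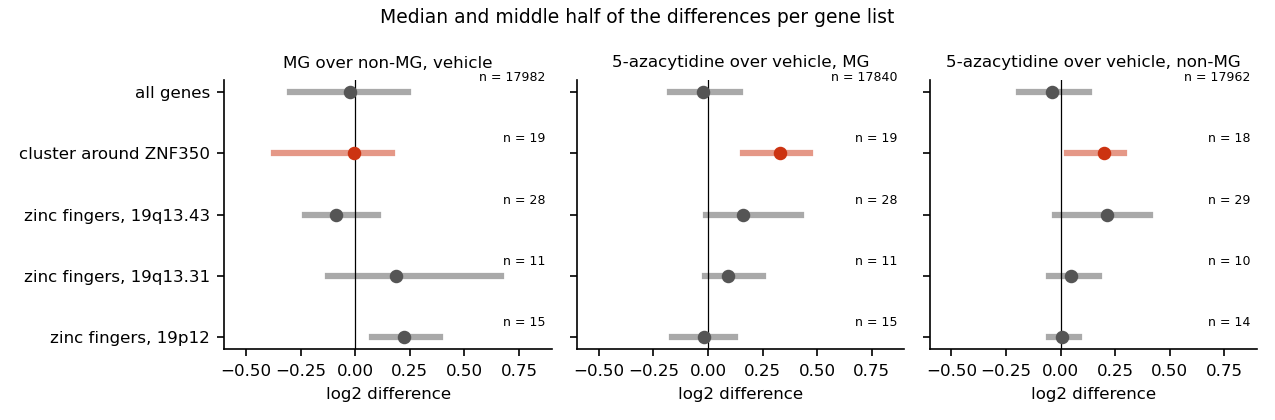
Median (point) and middle range from the lower to the upper quartile (bar) of the log2 differences (x axis) of all genes and of 4 zinc finger clusters in 3 comparisons, with the number of genes with a ratio. The cluster around ZNF350 lies at 0.33 in MG cells with 5-azacytidine and at -0.01 between the cell types.

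Other genes lie among the zinc finger genes, and 16 of them were listed. Of these, 3 had a ratio and none passed 1.5-fold in any comparison. So few genes cannot be set against the shares of all genes. PPP2R1A, a scaffold subunit of protein phosphatase 2A, measured 794, 574, 807 and 781, and its difference with 5-azacytidine in MG cells was -0.01. That of MYADM was 0.28 and that of SIGLEC14 0.04. With vehicle all 3 lay lower in MG than in non-MG cells. The differences were -0.16 for PPP2R1A, -0.15 for MYADM and -0.35 for SIGLEC14. With 5-azacytidine on both sides SIGLEC14 was at -0.57, just short of 1.5-fold, while PPP2R1A was at 0.08 and MYADM at 0.23. ERVV-1 and BIRC8 were matched by no probe, and the rest were below background.

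Promoter windows of 300 bases, from 250 before to 50 after the start, were found for 30 of the 36 genes. They held a median of 25 CG dinucleotides at the most upstream start (from 14 to 30), compared with 14 over 35116 windows of all genes. The windows of all genes include later starts too, so that the 2 sets are not alike. Among later starts of the members, ZNF160 had 4 and ZNF677 had 34. ZNF350 had 17, of which 15 are in the sequence above, and 46.0% of all windows have as many or more. ZNF836 had fewer, and ZNF415 and ZNF331 as many, all 3 below background here. The median was 25 in the 17 genes with kept probes and 21 in the 11 below background. Across 16 genes, which share the same arrays, Pearson's r between the CG count and the difference with 5-azacytidine in MG cells was -0.08. ZNF761, with the largest difference, had 28.

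**Figure D5:**
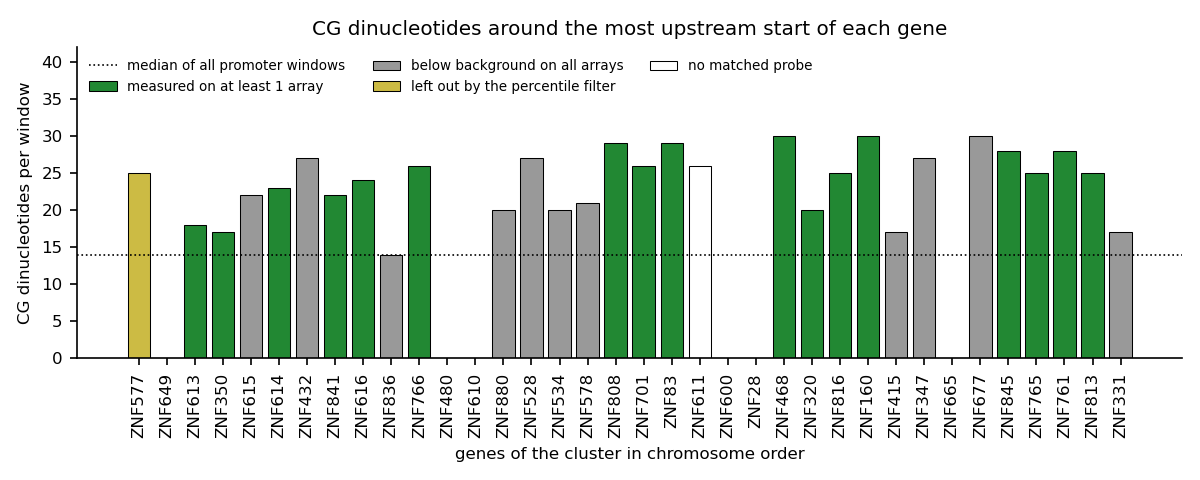
CG dinucleotides per 300-base window (y axis) around the most upstream start of each gene in chromosome order (x axis). Colours give whether a gene was measured, genes without a bar have no window, and the dotted line is the median of 14 over all windows. ZNF350, at 17, has one of the lower counts of the cluster.

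ZNF350 shared its longest run of bases with its neighbour ZNF613. The run tcctCGgcCGcCGtagg, of 17 bases, lies from -39 to -23 relative to the start of ZNF350 and begins at -39 in ZNF613 too, and it is in 2 of 35116 windows. These genes differed in their signal, ZNF613 being above background on all 4 arrays. The letters AANATGGC, the core of the motif of YY1, were searched on both strands after the sequences had been read. They are in 6 of 30 windows of the cluster, or 20%, compared with 6.58% of all windows, and with 16.3%, 7.69% and 6.25% in the zinc finger clusters of 19q13.43, 19p12 and 19q13.31. The letters were picked from the printed sequences, and 4 of the 6 genes are among those, so that the share only describes these windows. The share over all windows again includes later starts of genes. The 6 genes are ZNF577, ZNF613, ZNF350, ZNF615, ZNF614 and ZNF432, at the ZNF350 end of the cluster. Their signals ranged from below background on all arrays (ZNF615 and ZNF432) to above it on all (ZNF613 and ZNF614).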

How the data were processed

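The authors deposited the Agilent Feature Extraction 11.5.1.1 output of each of the 4 arrays, with a background-corrected, linear intensity per spot that is not normalized between arrays. Their own log2 values, deposited for 24189 probes, were made in GeneSpring with filters on the lowest 20th percentile and on flags. Here control spots and outlier spots were left out (5 of 50599 probes), spots of a probe were averaged, and log2 intensity minus the 75th percentile of its array was taken. Probes were dropped where at least 2 arrays put them in the lowest 20th percentile, or where no array was well above background, which left 23860 probes and 18919 genes and transcripts. Probes were named by RefSeq accession (GRCh38.p14), 79.4% of those kept, and the ratios of the kept probes of a gene were averaged. No ratio was taken where neither array was well above background. Spot error is the median SD between spots of probes with 8 or more spots, from 0.34 at log2 intensities below 3 to 0.05 above 10. Precision is limited by the number of arrays, 4.

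Members and gene lists were chosen with earlier results of these data known. All members were named, and from the other lists the genes lower in MG cells with vehicle and higher with 5-azacytidine in MG cells, with the largest rise and fall among the interleaved genes and the KRAB repression genes. Alternatives were dim signals as measured, normexp with an offset of 50 (on median spot intensity), quantile normalization, median centring, no filter, probes past the background flag on all 4 arrays, the brightest probe, the authors' values and a 2-fold threshold. Python 3.11.15, numpy 2.4.6, pandas 2.3.3, matplotlib 3.10.9, R 4.3.3 and limma 3.58.1 were used.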

Additional observations from a re-analysis of the deposited data

How the results depend on the processing

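Over 592 values of single genes under the alternatives, 520 kept their call or, where not called, moved by no more than their spot error, and no called value changed sign. With signals as measured, 2 genes were lower in MG vehicle (ZNF350 and ZNF28), 4 were higher with 5-azacytidine in MG cells, 2 were both and 1 was higher in non-MG cells. With normexp, none was higher with 5-azacytidine in MG cells and their median there was 0.14, 1 was lower in MG cells with 5-azacytidine, and none was higher in MG cells with either treatment. Centring on the median moved the median of all genes to 0.17 and 0.26 between the cell types with vehicle and with 5-azacytidine, and that of the members to 0.19 and 0.38, with 1 lower and 4 higher in MG cells with 5-azacytidine. With probes past the background flag on all 4 arrays, none was lower and none higher in MG vehicle, and 1 was lower (ZNF160) and none higher with 5-azacytidine. ZNF350 cannot be called in that setting, since its MG vehicle signal is dim. Without the filter, 2 were higher in MG vehicle and 1 (ZNF577) was lower with 5-azacytidine in MG cells. With the brightest probe, 2 were lower in MG vehicle (ZNF350 and ZNF160), 2 were higher with 5-azacytidine in MG cells and 1 in non-MG cells (ZNF813). With the authors' values, 4 were higher and 1 lower with 5-azacytidine in MG cells, 2 were higher in MG vehicle and 1 (ZNF350) had both changes. With quantile normalization, 2 were lower in MG cells with 5-azacytidine (ZNF350 and ZNF160), and no other count changed. At 2-fold, none was higher with 5-azacytidine in MG cells, 1 was lower in MG cells with 5-azacytidine, and none was higher in MG vehicle. The cause of these changes was not tested, apart from the dim signals. The median with 5-azacytidine in MG cells stayed above 0 throughout.

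Adding probes by gene symbol was not run, because the files used hold no symbol. No paired analysis was possible because each condition has 1 array. Signal over background limited the results in that 14 genes had no signal to compare, and ZNF350 has only a bound in MG vehicle.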

Other observations

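The list for KRAB repression also held related genes such as BRCA1 and UHRF1, and all its genes had a ratio in every comparison. Of 21 listed, 2 were higher in MG than in non-MG cells with vehicle past 1.5-fold and none lower, which is 9.52% and 0%, compared with 6.8% and 9.79% of all genes. These 2 were BRCA1 and UHRF1. BRCA1, the binding partner of ZNF350, measured 201, 193, 419 and 391 in non-MG vehicle, non-MG 5-azacytidine, MG vehicle and MG 5-azacytidine. Both MG arrays were above both non-MG arrays, with differences of 0.87 with vehicle and 0.66 with 5-azacytidine. UHRF1, which guides maintenance methylation by DNMT1, was higher by 0.66 in MG cells with vehicle, and had the highest difference of the list with 5-azacytidine in non-MG cells, at 0.32. MORC2, which acts with the HUSH complex, was the 1 gene past 1.5-fold with 5-azacytidine in MG cells (4.76%, compared with 5.73% of all genes). It measured 74.4, 63.8, 58.8 and 88.4, and differed by 0.62 there and by -0.52 between MG and non-MG vehicle, the lowest of the list. The lowest differences elsewhere were those of ATF7IP with 5-azacytidine in MG cells (-0.29), HDAC1 in non-MG cells (-0.27) and TASOR between the treated cell types (-0.09). The medians of the 21 genes were 0.13 and 0.16 between the cell types with vehicle and with 5-azacytidine, and -0.04 and -0.06 with 5-azacytidine in MG and non-MG cells.

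The other zinc finger clusters are given by their counts, with no test. In 19q13.31, 5 of 11 genes were higher in MG cells with vehicle past 1.5-fold and 2 were lower, and in 19p12, 3 of 15 were higher and none lower, compared with 6.8% higher and 9.79% lower of all genes. In 19q13.43, 5 of 29 genes were higher with 5-azacytidine in non-MG cells past 1.5-fold, and 3 of 28 in MG cells, compared with 3.85% and 5.73% of all genes.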
